A study of Mus musculus with 26 samples.

Results

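The 8 genes described here encode enzymes of cholesterol synthesis: Hmgcs1, Idi1, Fdft1, Sqle, Lss, Cyp51, Msmo1 and Dhcr7. They were chosen by name, as the entries of a gene count table whose Ensembl identifier carries one of these symbols, and all 8 were found among the 27501 genes of the table. RNA was counted in 26 libraries from whole mouse brain, 12 of nuclei after sorting, 12 of nuclei before it and 2 of cytoplasm. Every mouse, on a B6.FVB background, carried a transgene that joins GFP (green fluorescent protein) to Rpl10a, a ribosomal protein. In the neuron line, Tg(Snap25-EGfp/Rpl10a)JD362Htz, the fusion is driven by Snap25, a gene of presynaptic terminals. In the astrocyte line, Tg(Aldh1L1-EGfp/Rpl10a)JD130Htz, it is driven by Aldh1L1, an astrocyte enzyme gene, and in the oligodendrocyte line, Tg(Cnp-EGfp/Rpl10a)JD368Htz, by Cnp, a gene of myelinating cells. The mice were 6 to 12 weeks old. Sorted nuclei of each line and presort nuclei of each line, which hold all cell types of the brain, had 4 libraries per group. Each group had 2 libraries from males and 2 from females, with 1 mouse per library. Presort and sorted libraries came from the same mice, but the labels do not tie them, and the tests treated them as independent. The cytoplasm group had 1 male library of the astrocyte line and 1 female library of the oligodendrocyte line, both from whole brain.

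Cholesterol hardly crosses the blood-brain barrier, so the brain makes its own, and myelin holds a large share of it. Synthesis starts from acetyl-CoA, passes through mevalonate and isoprenoid diphosphates to squalene, and continues through lanosterol and later sterols to cholesterol. Genes of the pathway share a known control: when sterols are scarce, the protein Scap escorts the transcription factors Srebf2 and Srebf1 away from the endoplasmic reticulum for activation, Insig proteins hold them back when sterols are plentiful, and the activated factors bind sterol regulatory elements beside NF-Y and Sp1 sites in promoters.

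Hmgcs1 forms HMG-CoA at the entry to the pathway (chr13:119690379-119708260, plus strand, GRCm38). Idi1 interconverts the isoprenoid units (chr13:8885501-8892451, plus strand), and Fdft1, squalene synthase, commits them to sterols (chr14:63145150-63179578, minus strand). Sqle oxidises squalene (chr15:59315077-59331192, plus strand), and Lss closes the rings to lanosterol (chr10:76531588-76557138, plus strand). Cyp51 (chr5:4081145-4104746, minus strand) and Msmo1 (chr8:64718139-64733792, minus strand) take part in removing methyl groups from the sterol. Dhcr7 catalyses the last reduction to cholesterol in one branch of the pathway (chr7:143823145-143848410, plus strand). All 8 are protein-coding genes, and the coordinates are those of GENCODE M21.

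Promoters of 6 of the 8 genes were found in RefSeq (GRCm38.p6), each running from 250 bases before to 50 bases after a start site, and none for Sqle or Fdft1. The letters TCACNCCAC, a core of the sterol regulatory element, were found in 1 of the 6, that of Hmgcs1, 137 bases before the start, and in 1.24% of all 32851 promoters, on either strand. Dhcr7 has 3 promoter entries, of which the first was counted. The NF-Y letters CCAAT were found in 5 of the 6, all but that entry of Dhcr7, for which another entry holds them, and in 37.4% of all promoters. The Sp1 letters GGGCGG were found in 6 of 6 and in 35.7%. A match describes letters only and shows no binding. The stretches that precede the first annotated start are printed for Hmgcs1, the gene with the sterol element letters, and for Dhcr7, one of the genes that differed most between sorted types, with matches to these motifs on either strand in capitals. The Hmgcs1 stretch is chr13:119690101-119690350 and the Dhcr7 stretch is chr7:143822917-143823144, both on the plus strand, in the 5′ to 3′ direction.
Hmgcs1: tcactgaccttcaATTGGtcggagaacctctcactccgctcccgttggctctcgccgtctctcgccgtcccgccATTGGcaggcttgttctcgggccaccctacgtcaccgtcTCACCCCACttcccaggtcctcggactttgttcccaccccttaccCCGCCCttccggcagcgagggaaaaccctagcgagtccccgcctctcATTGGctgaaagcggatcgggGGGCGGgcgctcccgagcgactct
Dhcr7: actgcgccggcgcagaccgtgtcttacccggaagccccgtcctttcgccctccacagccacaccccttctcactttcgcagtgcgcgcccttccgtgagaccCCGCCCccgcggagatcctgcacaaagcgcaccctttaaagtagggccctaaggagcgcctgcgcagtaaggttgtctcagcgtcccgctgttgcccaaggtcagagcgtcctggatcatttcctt

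Total counts were 2097653 to 3239445 per library in 10 of the 12 sorted libraries, 147826 to 313720 in 11 of the 12 presort libraries, and 4461568 and 3885312 in cytoplasm. Levels are given in CPM, which are counts scaled by library total and TMM factor, listed in the order of the replicate numbers: 2, 4, 26 and 28 for sorted neurons, 6, 8, 30 and 32 for sorted astrocytes, and 10, 12, 34 and 36 for sorted oligodendrocytes. In a shallow presort library 3 counts corresponded to 7.74 to 16.3 CPM, so low values there rest on few counts. In each sorted type its own list of markers was high: the summed astrocyte list was 20100 to 33200 CPM in sorted astrocytes and at most 2100 CPM in the other sorted types, the neuron list 14800 to 16900 CPM in sorted neurons against at most 4070, and the oligodendrocyte list 38800 to 54400 CPM in sorted oligodendrocytes against at most 2010.

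Of the 26 libraries 3 stood apart. Sorted oligodendrocyte replicate 36 had 1602594 counts spread over 7674 detected genes, whereas the other 3 libraries of that group had 16223 to 16575 detected genes. GFP and Rpl10a had 0 counts in replicate 36. In the other 3 libraries GFP was at 47.6 to 66.4 CPM, beside 51.1 to 77.4 CPM in presort nuclei of the line. The summed oligodendrocyte markers of replicate 36 were as high as in the others (54400 CPM), though Cnp was lower (1125 CPM against 1754 to 2694 CPM). The 8 cholesterol genes summed to 84.2 CPM in it, and to 863 to 1300 CPM in the other 3. Because the 3 sorted types were tested in 1 fit with a shared spread, this library also widened the errors of the comparison between neurons and astrocytes, so each result that it touches is given with and without it. Sorted astrocyte replicate 30 was shallow (134357 counts), and presort astrocyte line replicate 29 was deep (3274488 counts).

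Hmgcs1 was at 24.2, 35.9, 39.8 and 47.6 CPM in sorted neurons, at 93.2, 106, 105 and 74.0 CPM in sorted astrocytes, and at 113, 95.2, 77.1 and 18.6 CPM in sorted oligodendrocytes. Presort libraries lay between 16.0 and 59.2 CPM, and the cytoplasmic ones at 221 and 72.3 CPM. Every sorted astrocyte library, and every sorted oligodendrocyte library except replicate 36, exceeded all 4 neuronal ones. By group mean cytoplasm came first, followed by sorted astrocytes and sorted oligodendrocytes, and no neighbouring pair in the order of the 7 groups differed by more than the larger of their SDs.

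Idi1 had the fewest counts of the 8 genes. Sorted neurons had 5.56, 8.29, 16.6 and 17.3 CPM, sorted astrocytes 34.6, 47.9, 65.9 and 42.1 CPM, and sorted oligodendrocytes 19.3, 19.9, 29.97 and 0 CPM. The astrocyte libraries were all above those of both other sorted types, and sorted oligodendrocyte replicate 36 had no count. Presort nuclei of the neuron and astrocyte lines lay between 3.69 and 16.4 CPM, whereas those of the oligodendrocyte line had 0, 0, 0 and 1 count, a level that 3 counts (8.56 to 12 CPM in these libraries) would bound. Cytoplasm had 107 and 19.6 CPM. In the order of group means the gaps beyond the larger SD were those below sorted astrocytes and above the presort oligodendrocyte line.

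Fdft1 was nearly even across sorted neurons, at 76.2, 84.5, 74.7 and 98.3 CPM, and spread in sorted astrocytes, at 132, 244, 72.5 and 273 CPM. Sorted oligodendrocytes had 144, 131, 82.4 and 8.75 CPM. The lowest astrocyte value, below every neuronal library, was that of the shallow replicate 30, which rests on 11 counts. Presort libraries lay between 32.6 and 92.2 CPM and cytoplasm at 90.8 and 105 CPM, and no neighbouring groups in the order of means differed by more than the larger SD. A stretch of 774 exonic bases of Fdft1 overlaps Ctsb, a lysosomal protease gene on the other strand, and the kit keeps no strand; Ctsb itself did not pass the test in any comparison.

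Sqle was at 154, 196, 190 and 155 CPM in sorted neurons, at 302, 596, 316 and 696 CPM in sorted astrocytes, and at 349, 272, 168 and 3.28 CPM in sorted oligodendrocytes. All astrocyte libraries were above all neuronal ones, and the oligodendrocyte libraries other than replicate 36 spread over both ranges. Presort libraries ranged from 74.2 to 263 CPM and cytoplasm was lower, at 37.0 and 58.2 CPM. Sorted astrocytes led the order of means by more than the larger SD, cytoplasm came last by more than the larger SD, and no neighbours among the 5 groups between them were so separated.

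Lss was at 27.8, 20.1, 29.9 and 17.7 CPM in sorted neurons, at 53.7, 37.5, 59.3 and 59.8 CPM in sorted astrocytes, and at 80.1, 72.3, 43.2 and 6.56 CPM in sorted oligodendrocytes. Of the 8 genes it is the one for which the 2 highest sorted libraries were oligodendrocyte libraries and no astrocyte library exceeded 59.8 CPM. Presort libraries lay between 18.6 and 41.3 CPM, and cytoplasm at 20.99 and 14.9 CPM. Sorted astrocytes and sorted oligodendrocytes stood next to each other at the top of the order of means, with a gap smaller than their SDs. The gaps that exceeded the larger SD were those below the presort neuron line and below sorted neurons.

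Cyp51 was at 58.7, 75.8, 113 and 116 CPM in sorted neurons, at 163, 233, 191 and 318 CPM in sorted astrocytes, and at 185, 121, 150 and 3.28 CPM in sorted oligodendrocytes. Astrocytes again lay above neurons without overlap, and the oligodendrocyte libraries other than replicate 36 lay between them or within the astrocyte range. Presort libraries ranged from 43.9 to 128 CPM, and cytoplasm was at 19.5 and 17.9 CPM. Only the first group (sorted astrocytes) and the last (cytoplasm) stood clear of their neighbours by more than the larger SD. Cyp51 shares 166 exonic bases with Akap9 on the other strand, and Akap9 did not pass the test in any comparison.

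Msmo1 had the widest separation between sorted types together with Dhcr7. Its levels were 16.7, 25.3, 57.7 and 45.2 CPM in sorted neurons, 143, 330, 198 and 422 CPM in sorted astrocytes, and 78.0, 65.7, 92.1 and 15.3 CPM in sorted oligodendrocytes. No astrocyte library overlapped either of the other types. Presort libraries lay between 25.8 and 98.7 CPM and cytoplasm at 24.5 and 16.3 CPM, and the only gap beyond the larger SD was the one below sorted astrocytes.

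Dhcr7 was at 111, 81.3, 58.9 and 51.9 CPM in sorted neurons, at 343, 627, 415 and 929 CPM in sorted astrocytes, and at 332, 311, 220 and 28.4 CPM in sorted oligodendrocytes. The 3 types were ordered without overlap once replicate 36 was set aside. Presort libraries ranged from 81.4 to 161 CPM and cytoplasm was at 43.2 and 42.7 CPM. Gaps beyond the larger SD stood below sorted astrocytes, above sorted neurons and above cytoplasm.

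**Figure D1:**
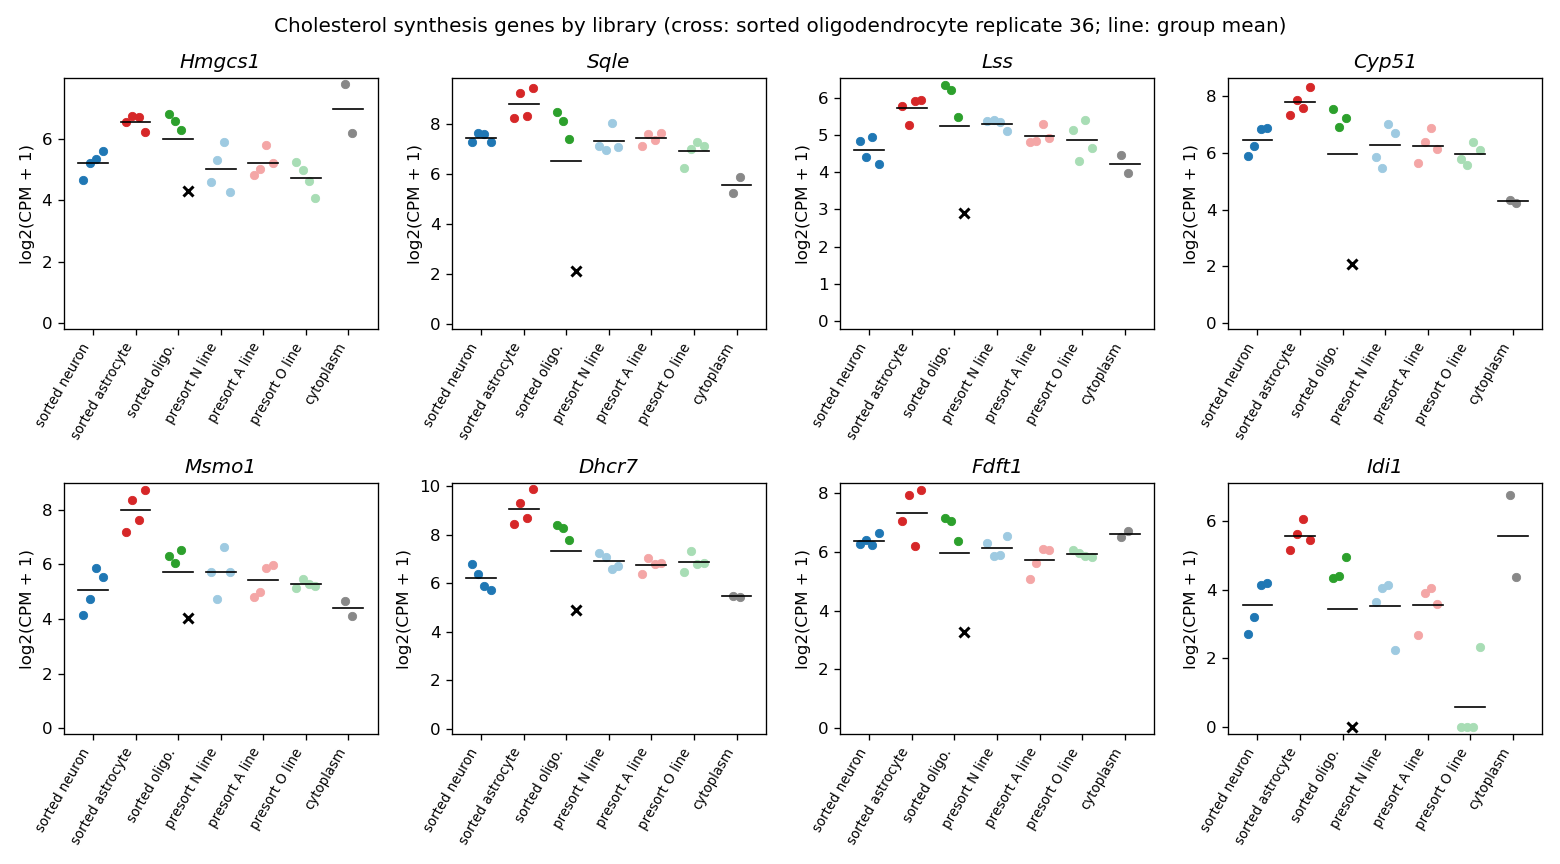
Level of each of the 8 genes in each of the 26 libraries, as log2(CPM + 1) on the vertical axis against the 7 groups (N, A and O: neuron, astrocyte and oligodendrocyte line), with the mean of the plotted values as a line. Sorted astrocytes were above sorted neurons without overlap for 7 of 8 genes, and the cross, sorted oligodendrocyte replicate 36, was the lowest of the 12 sorted libraries for each of the 8 genes.

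The first question of the design is how nuclear RNA differs among the 3 sorted types. Between neurons and astrocytes all 8 genes had lower values in neurons. The median log2 fold change was -1.44 over the 8 and 0.05 over all 13029 genes tested. Msmo1 (-2.95 ± 0.58 (SE), adjusted p = 0.00146) and Dhcr7 (-2.95 ± 0.59, adjusted p = 0.00175) passed edgeR's quasi-likelihood test with Benjamini-Hochberg adjustment, so 2 of 8 fell in neurons where 11.4% of all genes did. The 2 groups did not overlap for 7 of the 8 genes, all but Fdft1, and for 16.4% of all genes in that direction. Levels here are of bulk RNA, so fewer cells of a type and less RNA per cell cannot be told apart.

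Without sorted oligodendrocyte replicate 36 the estimates stayed where they were and all 8 genes passed as lower in neurons, beside 20.6% of all genes. Msmo1 was then at -2.97 ± 0.39 (adjusted p = 9.98e-06) and Dhcr7 at -2.96 ± 0.35 (adjusted p = 2.72e-06). Idi1 was at -1.95 ± 0.39, Sqle at -1.50 ± 0.30, Hmgcs1 at -1.38 ± 0.28 and Cyp51 at -1.37 ± 0.29. The smallest differences were those of Fdft1, -1.18 ± 0.32, and Lss, -1.14 ± 0.32, with edgeR adjusted p of 0.00757 and 0.00874. A fit of only the 8 libraries compared also called all 8 genes. In males alone 7 genes passed. In females alone, 2 libraries per group with replicate 36 among them, edgeR called 0 of the 8 and 46 of 13210 genes in all. Over all alternatives the log2 fold change of Msmo1 lay between -3.46 and -2.66, with edgeR or DESeq2 adjusted p from 2.26e-07 to 0.378, and that of Dhcr7 between -3.69 and -2.30, with adjusted p from 2.43e-06 to 0.225.

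Markers of ependymal and choroid plexus cells, of mural cells and fibroblasts, and of endothelial cells moved with the sorted astrocytes too. Of each list 6 genes were tested, and 5, 4 and 2 of them were lower in neurons. The summed level of the 7 ependymal and choroid plexus genes was 691, 5590, 6270 and 7750 CPM in the 4 astrocyte libraries, and 92.6 to 148 CPM in sorted neurons and 78.7 to 200 CPM in sorted oligodendrocytes. Most of it was Ttr, the thyroxine carrier of the choroid plexus, at 482 to 7310 CPM, and Ccdc153 was at 0 in all 4 libraries. Astrocyte replicate 6, with the lowest sum of these markers, also had the lowest sum of the 8 cholesterol genes of the 4 (1270 CPM, against 2220, 1420 and 2810 CPM), and it was still above every neuronal library (474 to 580 CPM). Mural and fibroblast genes summed to 270 to 558 CPM in sorted astrocytes and 12 to 25.8 CPM in sorted neurons, with Pdgfrb, the receptor that marks pericytes, at 158 to 392 CPM and at 0 to 3.17 CPM. Endothelial genes summed to 48.1 to 127 CPM and 12.5 to 32.9 CPM, and Cldn5, a tight junction gene, reached 5.85 CPM at most in sorted astrocytes. The part of these cells in the result was not tested.

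Between neurons and oligodendrocytes all 8 genes again had lower values in neurons, and 0 of 8 passed the edgeR test (1 at an unadjusted p under 0.05, and 1 by DESeq2), where 23.1% of all 13029 genes passed in either direction. Dhcr7 came nearest (-1.52 ± 0.56, adjusted p = 0.0606), and the median over the 8 was -0.67 beside 0.16 over all genes. Without replicate 36, 4 of 8 fell in neurons, beside 18.8% of all genes. They were Dhcr7 (-1.90 ± 0.35, adjusted p = 0.00036), Lss (-1.43 ± 0.33), Hmgcs1 (-1.35 ± 0.29) and Msmo1 (-1.11 ± 0.40, adjusted p = 0.0367). Values for Idi1 (-0.94 ± 0.40), Cyp51 (-0.73 ± 0.30), Sqle (-0.59 ± 0.32) and Fdft1 (-0.50 ± 0.34) did not pass. For 6 of the 8, all but Sqle and Fdft1, the 4 neuronal and the 3 oligodendrocyte libraries did not overlap, as for 21.6% of all genes in that direction. DESeq2 on all libraries called 1 gene, and males alone gave 6. Endothelial and mural or fibroblast markers moved the same way, with 4 of the 6 tested lower in neurons for each list, beside 12.4% of all genes. Of oligodendrocyte precursor markers 2 of 5 were lower, and of microglia markers 1 of 6. Of 6 ependymal and choroid plexus markers 2 were lower and 1 higher. Endothelial genes summed to 51.9, 187, 75.4 and 0 CPM in the 4 oligodendrocyte libraries and mural and fibroblast genes to 82.7, 204, 227 and 7.66 CPM. Precursor genes summed to 140, 134, 160 and 52.5 CPM there and to 17.8 to 34.5 CPM in sorted neurons. The part of these cells in the result was not tested.

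Astrocytes and oligodendrocytes differed in Msmo1, which was higher in astrocytes by 2.17 ± 0.56 on the log2 scale (edgeR adjusted p = 0.0114). It was 1 of 8 to pass, where 9.62% of all genes were higher in astrocytes, and the median over the 8 was 1.19 beside 0.11 over all genes. Without replicate 36 the genes that passed were Msmo1 (1.86 ± 0.42, adjusted p = 0.00227), Dhcr7 (1.06 ± 0.36, adjusted p = 0.0344) and Sqle (0.91 ± 0.33, adjusted p = 0.0469), 3 of 8 beside 14.6% of all genes. Idi1 (1.01 ± 0.41), Fdft1 (0.68 ± 0.35) and Cyp51 (0.64 ± 0.31) did not pass. Hmgcs1 (0.03 ± 0.30) and Lss (-0.29 ± 0.34) had values near 0, and Lss had the opposite sign to the estimate from all libraries (0.11 ± 0.59). Astrocyte and oligodendrocyte libraries did not overlap for Msmo1, Dhcr7 and Idi1, 3 of 8, where 13.3% of all genes were without overlap in that direction. Markers of ependymal and choroid plexus cells also stood higher in astrocytes (5 of 6 tested, 691 to 7750 CPM in sum against 78.7 to 200 CPM), and their part was not tested. Over all alternatives the value of Msmo1 ranged from 1.72 to 2.60, with adjusted p from 0.000167 to 0.344.

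**Figure D2:**
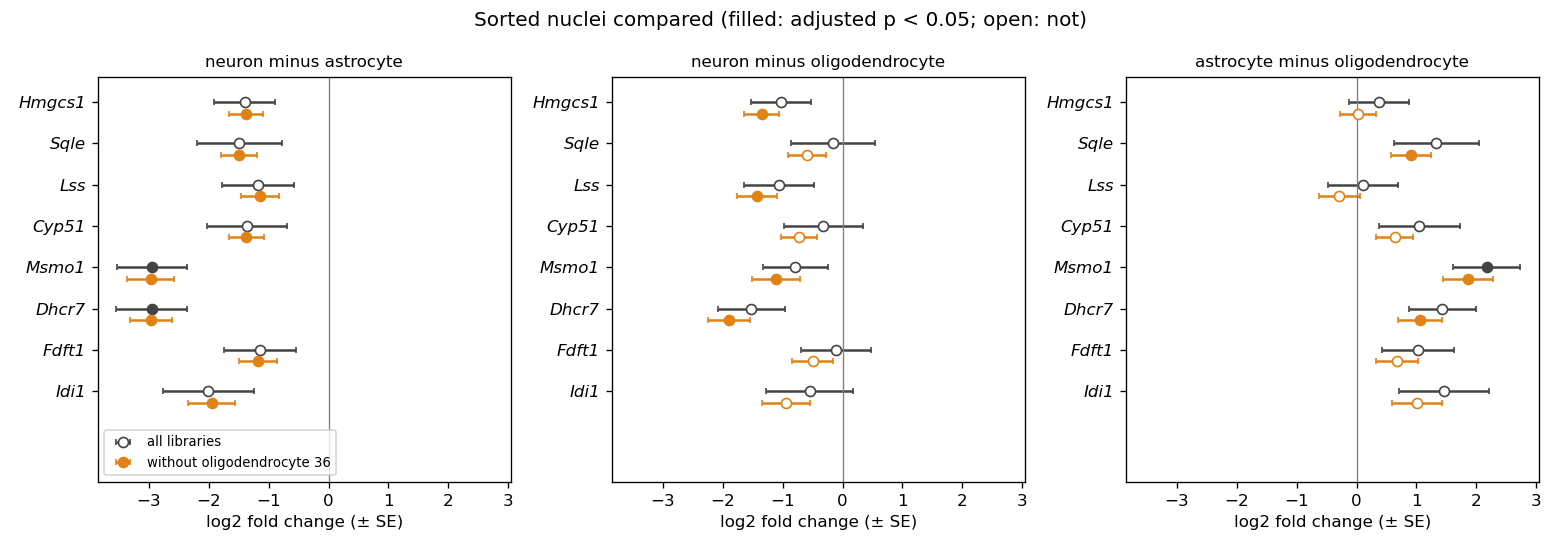
Log2 fold change with its standard error (horizontal axis) of each gene in the 3 comparisons of sorted nuclei, with all 12 libraries (grey) and without sorted oligodendrocyte replicate 36 (orange); filled points passed the adjusted threshold. The estimates for neurons against astrocytes hardly moved (Msmo1 -2.95 and -2.97), while their errors narrowed and the filled points went from 2 to 8.

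The second question is what the sort changed within each line. In the neuron line the summed neuron markers were at 12500 to 14200 CPM before the sort and 14800 to 16900 CPM after it. In the astrocyte line the astrocyte markers were at 2290 to 3460 and 20100 to 33200 CPM. In the oligodendrocyte line the oligodendrocyte markers were at 3320 to 4490 and 38800 to 54400 CPM. These markers changed least in the neuron line, and the part of this in the differences between lines was not tested. In the astrocyte line 7 of the 8 genes rose from presort to sorted nuclei, where 13.7% of all 11026 genes tested did. Msmo1 rose by 2.41 ± 0.35 on the log2 scale (edgeR adjusted p = 2.24e-05), from 27.1 to 61.9 CPM in the 4 presort libraries to 143 to 422 CPM in the sorted ones, and Dhcr7 rose by 2.25 ± 0.31 (adjusted p = 9.62e-06), from 81.4 to 131 CPM to 343 to 929 CPM. Smaller rises were those of Idi1 (1.65 ± 0.41), Fdft1 (1.57 ± 0.35), Sqle (1.31 ± 0.28), Cyp51 (1.30 ± 0.30) and Hmgcs1 (1.07 ± 0.32), with adjusted p from 0.0012 to 0.0148. Lss, at 0.54 ± 0.34 (adjusted p = 0.281), did not pass. For the same 7 genes that rose, sorted and presort libraries did not overlap, which held for 14.2% of all genes in that direction. The median over the 8 was 1.44 beside -0.03 over all genes. Idi1 in the presort libraries rests on 1, 4, 54 and 3 counts. Ependymal and choroid plexus markers rose with them (5 of 5 tested, from 309 to 871 CPM in sum to 691 to 7750 CPM), and their part was not tested.

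Leaving out both sorted astrocyte replicate 30 and presort replicate 29, the shallow and the deep library, again gave 7 genes. In males alone 3 genes passed (Msmo1, Dhcr7 and Fdft1) and in females alone 6, with Hmgcs1 at 0.75 (adjusted p = 0.29). Leaving out 1 library at a time gave 6 or 7.

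In the neuron line 0 of 8 genes passed the edgeR test between presort and sorted nuclei (2 at an unadjusted p under 0.05, Lss and Dhcr7, and 0 by DESeq2), where 6.37% of all 11024 genes did, and the median over the 8 was -0.11 beside 0.07 over all genes. The values of Cyp51 (0.01 ± 0.35), Sqle (-0.05 ± 0.27), Hmgcs1 (-0.06 ± 0.38), Fdft1 (0.09 ± 0.27) and Idi1 (-0.15 ± 0.55) were the smallest. Lss (-0.84 ± 0.32, edgeR adjusted p = 0.157), Dhcr7 (-0.82 ± 0.30, adjusted p = 0.128) and Msmo1 (-0.77 ± 0.44, adjusted p = 0.359) had lower values after the sort. Lss was the 1 gene of the 8 without overlap, at 33.2 to 41.3 CPM before and 17.7 to 29.9 CPM after, and 6.3% of all genes were so in that direction. With sex as a covariate 1 gene passed.

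In the oligodendrocyte line 0 of the 7 genes tested passed in edgeR (0 at an unadjusted p under 0.05, and 0 by DESeq2), where 8.35% of all 9520 genes did, and Idi1 was too low in counts to be tested. The values ran from 0.42 ± 0.67 for Fdft1 to 1.32 ± 0.62 for Hmgcs1. Without replicate 36, 4 of 7 rose from presort to sorted nuclei, beside 16.7% of the 6174 genes then tested. Hmgcs1 rose by 1.62 ± 0.37 (adjusted p = 0.00345), Cyp51 by 1.12 ± 0.31, Dhcr7 by 1.12 ± 0.31 and Sqle by 0.95 ± 0.33 (adjusted p = 0.042). Lss (0.99 ± 0.39), Msmo1 (0.88 ± 0.33) and Fdft1 (0.81 ± 0.32) did not pass, with adjusted p from 0.0519 to 0.068. All 7 were higher in the 3 remaining sorted libraries than in any presort library of the line, as were 24.8% of all genes. Males alone gave 5 genes.

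**Figure D3:**
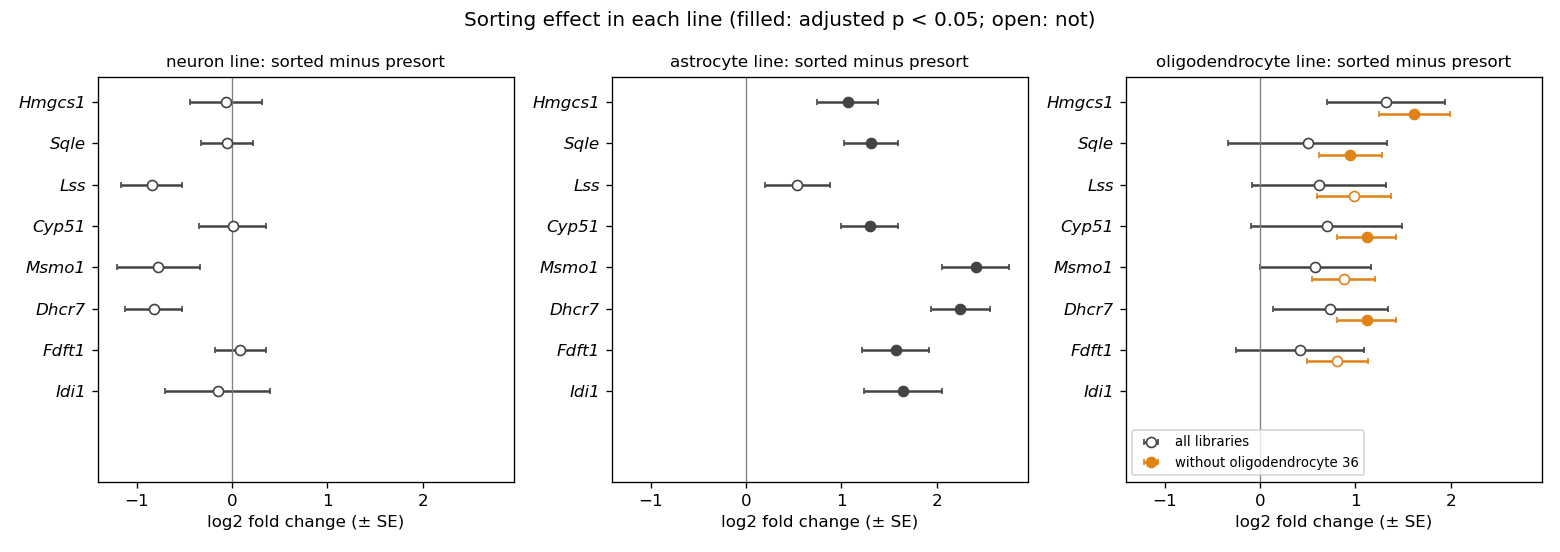
Log2 fold change from presort to sorted nuclei with its standard error (horizontal axis) for each gene in the neuron, astrocyte and oligodendrocyte lines; filled points passed the adjusted threshold, and orange points leave out sorted oligodendrocyte replicate 36. The neuron line had 0 filled points, the astrocyte line 7, and the oligodendrocyte line 0 with all libraries and 4 without replicate 36.

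The differences between lines were tested directly, as the sorting effect of one line minus that of another in a fit of all 24 nuclear libraries. Neuron line minus astrocyte line was negative for all 8 genes and passed for Msmo1 (-3.19 ± 0.67, edgeR adjusted p = 0.00119) and Dhcr7 (-3.05 ± 0.64, adjusted p = 0.00113), 2 of 8 beside 7.19% of all 12171 genes in that direction. Without replicate 36 all 8 passed, beside 15.2%, from Hmgcs1 (-1.24 ± 0.47, adjusted p = 0.0467) to Msmo1 (-3.28 ± 0.55, adjusted p = 3.43e-05). Over 29 alternatives both genes passed in each, with values of -3.64 to -2.88 for Msmo1 and -3.43 to -2.87 for Dhcr7.

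Neuron line minus oligodendrocyte line passed for Idi1 alone (-4.31 ± 1.39, adjusted p = 0.0324), 1 of 8 beside 8.81% of all genes in that direction. That value rests on presort oligodendrocyte libraries with 1 count of Idi1 between them and is no measure of a fold, and it passed in 17 of 26 alternatives (edgeR or DESeq2 adjusted p from 0.00169 to 0.0979). Without replicate 36, 5 of 8 passed beside 14.2%: Idi1, Dhcr7 (-1.96 ± 0.45), Lss (-1.84 ± 0.45), Hmgcs1 (-1.70 ± 0.49) and Msmo1 (-1.67 ± 0.58). Astrocyte line minus oligodendrocyte line passed for 0 of 8 in edgeR (2 at an unadjusted p under 0.05, and 1 by DESeq2), where 13.4% of all genes passed in either direction, with Msmo1 at 1.79 ± 0.68 (adjusted p = 0.0808). Without replicate 36 Msmo1 passed (1.61 ± 0.58, adjusted p = 0.0457), 1 of 8 beside 11.7% of genes in that direction.

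Presort nuclei and cytoplasm split the 8 genes. Hmgcs1 was higher in cytoplasm, with a log2 fold change of nuclei against cytoplasm of -2.20 ± 0.36 (edgeR adjusted p = 3.49e-05), and so was Fdft1 (-0.75 ± 0.29, adjusted p = 0.0334). Higher in nuclei were Cyp51 (1.90 ± 0.42, adjusted p = 0.00075), Sqle (1.58 ± 0.38, adjusted p = 0.00164), Dhcr7 (1.34 ± 0.33, adjusted p = 0.00191) and Msmo1 (1.09 ± 0.42, adjusted p = 0.0374). Lss (0.78 ± 0.37, adjusted p = 0.0841) did not pass, and Idi1 was not tested. Of the 7 genes tested 6 changed, where 50.5% of all 7728 genes did.

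The 12 presort libraries and the 2 cytoplasmic ones did not overlap for Cyp51 (43.9 to 128 CPM against 17.9 and 19.5), Sqle, Dhcr7, Msmo1 and, in the other direction, Hmgcs1 and Idi1. Of all genes tested, 15.3% were so on the nuclear side and 16.4% on the cytoplasmic side. For Idi1 the highest presort library was at 16.4 CPM and the lower cytoplasmic one at 19.6 CPM. Both cytoplasmic libraries differed widely from each other, with Hmgcs1 at 221 and 72.3 CPM, Idi1 at 107 and 19.6 CPM, and the neuronal gene Snap25 at 15100 and 3750 CPM. Without cytoplasm replicate 1 the value of Hmgcs1 was -1.09, and without replicate 2 it was -2.74. The calls for Msmo1 and Fdft1 were lost without cytoplasm replicate 2 (adjusted p = 0.146 and 0.149), that of Fdft1 also without cytoplasm replicate 1 (0.0708), and over all alternatives Msmo1 passed in 12 of 18 (adjusted p from 0.0235 to 0.146) and Fdft1 in 15 of 18 (0.00482 to 0.149). Only 2 cytoplasmic libraries enter this comparison, of differing line and sex.

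**Figure D4:**
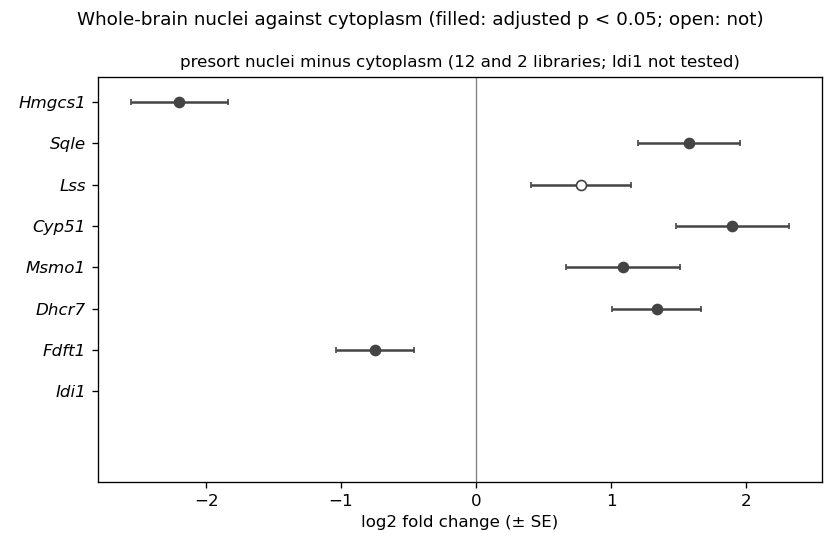
Log2 fold change of presort nuclei against cytoplasm with its standard error (horizontal axis) for the 7 genes tested; filled points passed the adjusted threshold. Hmgcs1 (-2.20) and Fdft1 (-0.75) lie on the cytoplasmic side and Sqle, Cyp51, Msmo1 and Dhcr7 (1.09 to 1.90) on the nuclear side.

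Before the sort no difference among the 3 lines passed for any of the 7 genes tested (0 at an unadjusted p under 0.05, and 0 by DESeq2), and the joint edgeR test called 0 of 6049 genes (0%). Most presort libraries were shallow, so this test can miss differences. Cnp, for one, was not called at 203 to 229 CPM in the oligodendrocyte line and 61.9 to 121 CPM in the other lines. Sex was tested with cell type as a covariate across the 12 libraries of sorted nuclei, and 0 of 8 genes passed in edgeR (0 at an unadjusted p under 0.05, and 0 by DESeq2), where 0.0461% of all genes did. The values for females against males ran from -0.56 ± 0.46 for Dhcr7 to 0.45 ± 0.62 for Idi1. Without replicate 36, a female library, Msmo1 (0.72 ± 0.27, edgeR adjusted p = 0.236) and Idi1 (0.72 ± 0.28, adjusted p = 0.246) were below 0.05 before adjustment and 0 passed, beside 0.361% of all genes. Males carry low and females high replicate numbers, so sex and the numbering cannot be told apart.

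Of 11 further enzymes of the pathway, most also had lower values in neurons than in astrocytes. With all libraries 2 of 11 fell in neurons, beside 11.4% of all genes: Hsd17b7 (-2.14 ± 0.73, edgeR adjusted p = 0.0484) and Nsdhl (-2.58 ± 0.55, adjusted p = 0.00287), which act beside Msmo1 on the same methyl groups. Hsd17b7 was at 18.9 to 24.1 CPM in sorted neurons and 79.0 to 106 CPM in sorted astrocytes. Its call was kept in 10 of 21 alternatives (edgeR or DESeq2 adjusted p from 8.89e-06 to 0.816), and that of Nsdhl in 20 of 21. Without replicate 36, 8 of 11 fell, beside 20.6% of all genes, and 2 rose. Those that fell included Mvd (edgeR adjusted p = 0.00212), which makes isopentenyl diphosphate. The 2 that rose were Ebp (1.10 ± 0.39), a sterol isomerase, and Lbr (0.92 ± 0.33), a sterol reductase and protein of the nuclear envelope. The median over the 11 was -1.24 beside 0.02 over all genes.

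Against oligodendrocytes, without replicate 36, 6 of the 11 fell in neurons, beside 18.8% of all genes, and 0 rose. Pmvk (-2.03 ± 0.37), Lbr (-1.76 ± 0.33), Mvk (-1.71 ± 0.46) and Fdps (-1.68 ± 0.53) were among them, enzymes of the early steps apart from Lbr. With all libraries 3 of 11 fell, beside 12.4% of all genes. In replicate 36, 6 of the 11 genes had 0 counts, yet the 11 summed to 2960 CPM. The other libraries of its group had sums of 493 to 541 CPM. Tm7sf2, one of the 11, reached 2320 CPM in sorted oligodendrocytes, where its median was 56.3 CPM. The median log2 fold change over the 11 was -1.22 with all libraries and -0.85 without replicate 36. In the astrocyte line 4 of the 10 enzymes tested rose on sorting, beside 13.7% of all genes, and 0 fell: Nsdhl (1.81 ± 0.45), Hsd17b7 (1.72 ± 0.32), Mvd (1.44 ± 0.50) and Sc5d (1.36 ± 0.41). The call of Mvd was lost in 8 of its 11 alternatives.

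**Figure D5:**
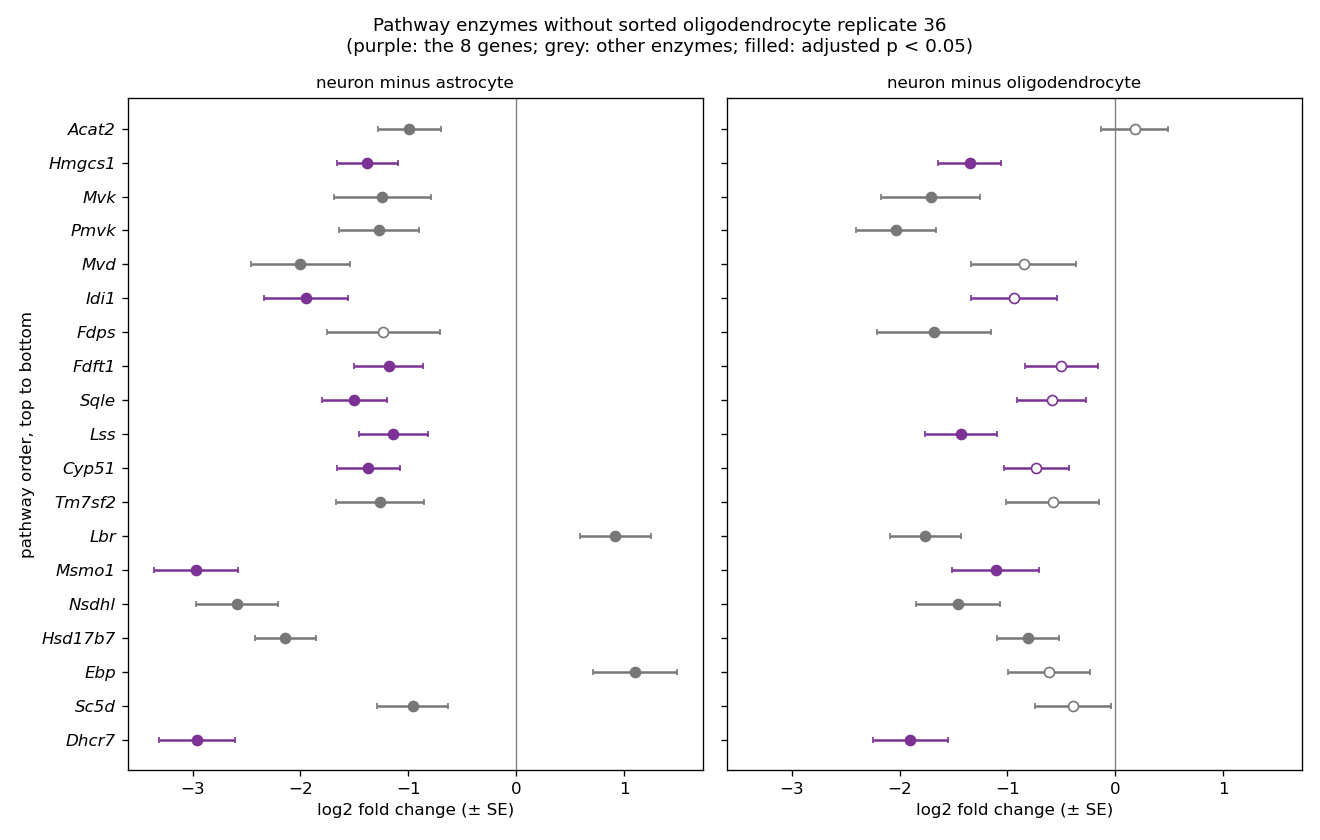
Log2 fold change with its standard error (horizontal axis) of 19 pathway enzymes, listed in pathway order, in sorted neurons against astrocytes and against oligodendrocytes without sorted oligodendrocyte replicate 36; purple marks the 8 genes and filled points passed the adjusted threshold. In the left panel 16 enzymes passed as lower in neurons and Lbr and Ebp as higher.

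Among 15 regulators of the pathway 2 fell in neurons against astrocytes, a share near the 11.4% of all genes that did: Srebf1 (-5.27 ± 0.60, edgeR adjusted p = 1.88e-05) and Insig1 (-1.87 ± 0.37, adjusted p = 0.0017), itself a target of the sterol-regulated factors. Srebf1 was at 3.54 to 40.1 CPM in sorted neurons, at 422 to 997 CPM in sorted astrocytes and at 312 to 404 CPM in sorted oligodendrocytes. Insig1 was at 67.1 to 103 CPM, 198 to 433 CPM and 168 to 297 CPM in the same order. Both also fell in neurons against oligodendrocytes (Srebf1 -4.18 ± 0.57, Insig1 -1.45 ± 0.37) and rose on sorting in the astrocyte line (2.68 ± 0.38 and 1.77 ± 0.29). Against oligodendrocytes 4 of the 15 fell, beside 12.4% of all genes, and 0 rose. Without replicate 36, 4 fell, beside 18.8%, and 1 rose. Srebf2 did not pass in neurons against astrocytes. It rose on sorting in the astrocyte line by 0.82 (edgeR adjusted p = 0.0437), a call kept in 8 of its 15 alternatives. Scap did not pass in neurons against either glial type. In the neuron line Srebf1 fell on sorting by 2.58 ± 0.53 on the log2 scale (adjusted p = 0.00759).

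Of 16 genes of sterol transport and removal, 7 fell and 2 rose in neurons against astrocytes, where 11.4% of all genes fell and 8.02% rose. Apoe, the lipid carrier (-5.19 ± 0.53), Lcat, which esterifies carried cholesterol (-6.25 ± 0.90), Soat1, which esterifies it in cells (-4.11 ± 0.53), and Abca1, an exporter (-3.55 ± 0.37), were among those that fell, and Abcg1 (2.82 ± 0.56) and Vldlr (1.83 ± 0.40) rose. Of 11 genes of fatty acid synthesis 6 fell, beside the same 11.4%, and 0 rose, among them Fads2 (-5.41 ± 0.64), Elovl5 (-2.81 ± 0.50) and Scd2 (-2.76 ± 0.36), which desaturate or lengthen fatty acids. In presort nuclei against cytoplasm Lbr was higher in nuclei (2.69 ± 0.50) and Pmvk (-1.83 ± 0.49) and Acat2 (-1.10 ± 0.38), which joins acetyl-CoA units, higher in cytoplasm. Presort and cytoplasmic libraries overlapped for Pmvk and Acat2, with Acat2 at 58.5 and 141 CPM in cytoplasm and up to 88.5 CPM in presort nuclei. Without cytoplasm replicate 1 the value of Acat2 was -0.26, and without replicate 2 that of Pmvk was -0.92.

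The 8 genes varied together over the 24 nuclear libraries. Pearson's r between members of a pair, on log2 CPM, ran from 0.592 (Lss with Idi1) to 0.944 (Sqle with Cyp51) with a median of 0.726 over 28 pairs, and without replicate 36 from 0.479 to 0.876 with a median of 0.724. These points share groups and libraries, so r describes the pattern only. Standardised and averaged over the 8 genes, the level was 0.955 to 1.627 in sorted astrocytes, 0.529 to 0.992 in 3 sorted oligodendrocyte libraries with -2.541 in replicate 36, and -0.501 to -0.075 in sorted neurons. Among 9699 other genes with at least 10 CPM on average, the 8 most alike in this profile included Pcdh17 (r = 0.927), Hsd17b7 (0.921), Zfp870 (0.892), Kdm3a (0.882) and Ganc (0.871). Without replicate 36 they were Insig1 (0.914), Grm3 (0.909), Fermt2 (0.901), Tmc7 (0.885), Spag9 (0.884), Sema6d (0.882), Pcdh17 (0.879) and Ddx17 (0.877), so that 1 of the 8, Pcdh17, stood in both lists.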

How the data were processed

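Per the labels' protocols, Trizol was used for extraction, DNase to remove DNA, MinElute columns (Qiagen) for clean-up and Ovation RNA-seq V2 (NuGEN) for amplification. The authors deposited raw counts per gene and library, and used Trimmomatic, Bowtie2, STAR, bedtools and edgeR, per the submitters' processing notes. Their genome build, counted regions and strand setting were not given in the sources used here. The kit keeps no strand and adds no molecular identifiers, so the floors set by low counts cover counting error only. The SEs come from the edgeR fits and also include the spread between replicate libraries. Symbols and coordinates came from GENCODE M21, in which 26495 of 27501 identifiers were found. Replicates of 1 group differed beyond sampling noise (chi-square per degree of freedom at least 1.97).

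Counts were tested with edgeR 4.0.16 in R 4.3.3: quasi-likelihood F test, TMM scaling, filterByExpr by group with a minimum count of 10, two-sided, Benjamini-Hochberg adjustment over all genes tested, threshold 0.05. The SE is the log2 fold change divided by the square root of F. Sorted types shared 1 fit of 12 libraries, each line had its own fit of 8, and line differences one of 24. Alternatives were DESeq2 1.42.0, RLE size factors, no count filter, sex as a covariate, each sex alone, other sets of libraries in the fit, and leaving out each library in turn or those that stand apart. The fit of the 12 sorted libraries was tested on simulated data, which held no library like sorted oligodendrocyte replicate 36. The other fits were not so tested. The 8 genes and all lists were chosen with earlier results of these data known. Named other genes were members of fixed pathway lists, and the 8 genes nearest in Pearson's r. Some genes of these lists are not reported here. Ctsb and Akap9 were added once their overlap with 2 of the 8 genes was found.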

Additional observations from a re-analysis of the deposited data

Results flagged for a closer look

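Among 48 sets of 4 libraries of 1 gene in 1 group, 2 held a library far from the others, where chance gives about 1 in 20. In the presort neuron line Sqle was at 263 CPM in replicate 25 (80 counts) and at 124 to 135 CPM in the other 3 libraries. In the presort oligodendrocyte line Idi1 was at 3.99 CPM in replicate 35, which is 1 count, and at 0 in the other 3.

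The sorting effect differed between lines for 3 genes by edgeR's test of the difference with Benjamini-Hochberg adjustment. For the neuron line minus the astrocyte line the difference was -3.19 for Msmo1 (adjusted p = 0.00119), made of -0.77 and 2.41 in the fits of each line. For Dhcr7 it was -3.05 (adjusted p = 0.00113), made of -0.82 and 2.25. For Idi1 the difference between the neuron and the oligodendrocyte line was -4.31 (adjusted p = 0.0324), and it passed in 17 of 26 alternatives (adjusted p from 0.00169 to 0.0979), on 1 count in the 4 presort oligodendrocyte libraries.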

How the results depend on the processing

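No paired analysis was possible because presort and sorted libraries of 1 mouse carry different replicate numbers and the labels do not tie them. No pairing by neighbouring numbers was assumed. The SEs and p-values of sorted against presort nuclei, and of differences between lines, therefore ignore that these libraries share mice. Of 1345 values of single genes under alternatives, 1182 kept their direction and side of the threshold, 62 gained and 65 lost the call, and 36, all uncalled, changed sign.

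Counts of the 8 genes that passed moved as follows. For neurons against astrocytes (2 genes) DESeq2 gave 4, the fit of 24 nuclear libraries 4, the fit of 8 libraries 8, males 7, females 0 and the added alternative without sorted astrocyte 30 and oligodendrocyte 36 gave 8; leaving out 1 library gave 2 to 8. For neurons against oligodendrocytes (0) they were 1 with DESeq2, 2 in the fit of 24, 6 in males and 4 without both libraries; leaving out 1 gave 0 to 4. For astrocytes against oligodendrocytes (1) they were 2, 2, 0 in females and 3; leaving out 1 gave 1 to 3. In the astrocyte line (7) males gave 3, and leaving out 1 gave 6 to 7. In the neuron line (0) sex as a covariate gave 1, and leaving out 1 gave 0 to 1. In the oligodendrocyte line (0) males gave 5, and leaving out 1 gave 0 to 4. Nuclei against cytoplasm (6) gave 5 to 6 on leaving out 1. The difference of neuron and astrocyte lines (2) gave 7 and that of neuron and oligodendrocyte lines (1) gave 4 without the 3 libraries that stand apart (added after seeing the data), and 2 to 8 and 0 to 5 on leaving out 1. That of astrocyte and oligodendrocyte lines (0) gave 1 with RLE size factors, 1 with DESeq2, and 0 to 1 on leaving out 1. The 8, 4, 3, 4, 8 and 5 in the comparisons of sorted types, the oligodendrocyte line and both neuron line differences came without sorted oligodendrocyte 36. The 1 in the neuron line came without sorted neuron 2. The 0 in the difference of neuron and oligodendrocyte lines came without presort neuron line 1, 3 or 25, sorted neuron 4, sorted astrocyte 8 or 32, presort oligodendrocyte line 9, 11 or 33, or sorted oligodendrocyte 34. The 1 in that of astrocyte and oligodendrocyte lines came without sorted neuron 2 or 26, sorted astrocyte 6, or sorted oligodendrocyte 34 or 36. Presort lines and sex stayed at 0.

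Sign changes of uncalled values, with the cause not tested, were these. For astrocytes against oligodendrocytes Lss was -0.05 in the fit of 24, -0.73 in males, -0.29 to 0.35 on leaving out 1 library and -0.35 without both libraries, and Hmgcs1 -0.05 in males and -0.04 without both. For neurons against oligodendrocytes females gave 0.99 for Sqle, 0.56 for Cyp51, 0.90 for Fdft1 and 0.13 for Idi1; Fdft1 was 0.02 with sex as a covariate; on leaving out 1 library Sqle ran from -0.59 to 0.22 and Fdft1 from -0.50 to 0.14. In the neuron line Hmgcs1 was 0.09 and Sqle 0.11 without a filter, Sqle 0.26 in males, and Hmgcs1 0.03, Cyp51 -0.13 and Idi1 0.59 in females. On leaving out 1 library there, Hmgcs1 ran from -0.27 to 0.33, Sqle from -0.19 to 0.31, Cyp51 from -0.18 to 0.35, Fdft1 from -0.06 to 0.27 and Idi1 from -0.37 to 0.10. In the oligodendrocyte line females gave -0.86 for Sqle, -0.43 for Lss, -0.07 for Cyp51 and -0.39 for Fdft1. Depth limits presort values of Idi1, Lss and Hmgcs1, which rest on 18 counts or fewer in shallow libraries.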
